A study of Homo sapiens with 6 samples.

Results

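The genes described here encode RNA-binding proteins that set how long inflammatory mRNAs last: the zinc finger proteins ZFP36, ZFP36L1 and ZFP36L2, the ribonucleases ZC3H12A and ZC3H12C, the stem-loop-binding RC3H1, and HNRNPD and ELAVL1. These genes were chosen by name, with 9 names that stand for 8 genes because AUF1 is an older name of HNRNPD. All 13 array probes annotated to them were read, out of probes for 19090 named genes, and all 8 genes were among the 12350 genes bright enough to be tested. The cells were H358, a human line established from a bronchioalveolar lung carcinoma. A GFP line served as the control, and a second line, called the YAP(5SA) line after its label, is labelled as expressing YAP(5SA), a mutant of YAP, the transcriptional coactivator of the Hippo pathway, that escapes inhibitory phosphorylation; the labels name no promoter or clone for either. Both lines were given vehicle, IL-1b or TNFa for 60 min, and each of these 6 conditions was read on 1 array. Since the labels give the cytokine concentration in an implausible unit (10 g/ml), the real dose is unknown here.

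ZFP36, also called tristetraprolin, binds AU-rich elements in the tails of cytokine mRNAs and brings the CCR4-NOT deadenylase to them, and ZFP36L1 and ZFP36L2 are its paralogs with the same kind of tandem zinc finger. ZC3H12A, also called Regnase-1, is an endoribonuclease that cuts stem-loops in mRNAs such as that of IL6, and ZC3H12C is a relative of it; RC3H1, or Roquin-1, binds stem-loops of the same kind. HNRNPD binds AU-rich elements and is best known for promoting decay, whereas ELAVL1, or HuR, binds similar elements and is best known for stabilising the mRNA. ZFP36 and ZC3H12A are known as early response genes whose products then limit the inflammatory mRNAs induced with them.

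The windows just upstream of the start sites are shown for 3 of the genes: ZFP36 and ZC3H12A, because they rose with both cytokines, and ZFP36L1, because 1 of its probes was higher in the YAP(5SA) line. The sequences are from RefSeq (GRCh38.p14), 250 bases ending at the base before the annotated start, written 5′ to 3′ on the strand of the gene, with motif matches in capitals. The windows are chr19:39406597-39406846 on the plus strand for ZFP36, chr1:37474330-37474579 on the plus strand for ZC3H12A, and chr14:68793417-68793666 on the minus strand for the inner of the 2 ZFP36L1 start sites in that table.
ZFP36: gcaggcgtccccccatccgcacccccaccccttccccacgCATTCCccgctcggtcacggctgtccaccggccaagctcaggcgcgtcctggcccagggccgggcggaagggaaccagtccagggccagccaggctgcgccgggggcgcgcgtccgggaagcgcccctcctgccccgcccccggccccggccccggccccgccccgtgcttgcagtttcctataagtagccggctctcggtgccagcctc
ZC3H12A: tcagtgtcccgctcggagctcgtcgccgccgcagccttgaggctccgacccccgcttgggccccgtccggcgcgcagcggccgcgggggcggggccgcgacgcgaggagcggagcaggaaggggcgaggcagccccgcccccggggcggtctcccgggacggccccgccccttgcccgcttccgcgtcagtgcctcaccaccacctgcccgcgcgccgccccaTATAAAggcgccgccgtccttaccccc
ZFP36L1: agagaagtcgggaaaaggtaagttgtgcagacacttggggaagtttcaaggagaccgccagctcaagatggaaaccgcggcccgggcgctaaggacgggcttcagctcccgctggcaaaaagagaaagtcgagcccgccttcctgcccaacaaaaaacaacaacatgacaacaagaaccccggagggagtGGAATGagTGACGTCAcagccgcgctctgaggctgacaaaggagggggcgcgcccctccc

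Both strands were searched for 8 motifs: the NF-kB consensus and the serum response CArG box, both by name, AP-1 (TGANTCA), CRE (TGACGTCA), the TEAD core (GGAATG), EGR1 (GCGTGGGCG), the STAT element (TTCNNNGAA) and the TATA box (TATAAA). The capitals mark a TEAD core on the opposite strand in ZFP36, at bases 210 to 205 before the start, a TATA box in ZC3H12A at bases 27 to 22, and a TEAD core at bases 60 to 55 and a CRE at bases 52 to 45 in ZFP36L1. None of these matches overlapped another. Among the windows not shown, the outer ZFP36L1 window held no match to any of the 8 motifs. The TEAD core was also in the RC3H1 window and a ZC3H12C window, and the TATA box in those of RC3H1 and HNRNPD. Among 34788 such windows of all genes, 11.89% held the TEAD core, 10.77% the TATA box, 1.64% the CRE and 5.21% the NF-kB consensus, so the TEAD core and the TATA box are common letters in such windows. No match to the NF-kB consensus, AP-1, CArG, EGR1 or STAT motif was in any of the 8 windows of the 6 genes that had an entry, which says only that these letters are not in these windows. A match describes letters and shows no binding.

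With no replicate arrays, a line difference rests on 3 pairs, 1 per treatment, and a cytokine response on 2, 1 per line. Levels and differences are on the log2(intensity + 16) scale, a difference of 1 is a doubling for a bright probe, and adjusted p-values are from limma over all 12350 genes with a threshold of 0.05. The labels do not say whether the arrays came from separate cultures. In the main fit the p-values reflect the spread of a difference between pairs together with a prior spread taken from all genes. In some alternative fits all genes shared 1 standard error, so p followed the size of the difference alone. These were the fits on only the vehicle arrays and those of 1 cytokine, and those without an IL-1b or TNFa array. Fits with the dimmest 60% of probes left out were the same in this. The order of neighbouring single arrays has no error of its own. Where both arrays of 1 treatment lie above or below both arrays of another, the share of all genes that do so was not counted. Array medians lay between 335.2 and 398.1 intensity units. Over all genes the median TNFa response was -0.19 in the GFP line against 0.09 in the YAP(5SA) line, whereas that to IL-1b was 0.02 against 0.04. YAP1 itself was lower in the YAP(5SA) line (-0.73 ± 0.21, adjusted p = 0.0120), against the direction of the label. Where that probe lies is not known here, so whether it reads the transgene is not known either, and directions between the lines follow the label. As there was 1 line of each kind, YAP(5SA) and any other property of that line cannot be told apart. Of 11 epithelial and lung markers 5 were bright enough to test, led by KRT18 at 16.62 to 17.78 and CDH1 at 12.45 to 14.70. The others that passed were EPCAM, KRT8 and the lung marker SCGB1A1 (7.68 to 8.81). Too dim were KRT19 (5.0 to 8.11), CLDN4 (7.32 to 7.77), the lung marker NKX2-1 (6.36 to 7.19) and the surfactant genes SFTPA1, SFTPB and SFTPC. Of 6 leukocyte markers, CD14 (9.96 to 11.83), CD68 (10.35 to 10.85), MS4A1 and ITGAM passed the filter, while PTPRC (4.89 to 5.73) and CD3E (5.00 to 5.63) did not. CDH5 and VWF of 4 endothelial markers passed and PECAM1 and KDR did not, and of 6 fibroblast markers COL1A1 (9.83 to 10.74) and PDGFRB passed. Markers did move. CDH1 (1.65) and KRT18 (0.63) were higher and EPCAM (-1.03) and the leukocyte list's CD14 (-1.61) lower in the YAP(5SA) line. PDGFRB of the fibroblast list was higher there (1.10). Its GFP levels (7.20 to 7.33) lay below 7.79, the lowest mean level of any tested gene, so it passed the filter through the YAP(5SA) arrays. MS4A1 of the leukocyte list was higher with IL-1b (1.11) and TNFa (1.08). Under alternative settings the KRT18 call was lost in 7 of 15 and the EPCAM call in 2 of 14. The MS4A1 call was lost in 5 of 15 with IL-1b and 9 of 15 with TNFa. Those of CDH1, CD14 and PDGFRB were lost in none. Summed over each list, intensities per array were between 110066 and 244025 for the 11 epithelial markers and 2819 and 6030 for the 6 leukocyte markers. They were between 639.8 and 1010 for the endothelial and 1359 and 2138 for the fibroblast markers. The epithelial sum is mostly that of KRT18, the brightest marker at 16.62 to 17.78, and says little of the others. What part the markers have in the results below was not tested. As these were bulk samples, fewer cells with a transcript and less of it in each cell cannot be told apart.

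ZFP36 was the member that rose most, with both cytokines, and its level was higher in both lines. On the vehicle arrays it stood at 10.52 (GFP) and 11.02 (YAP(5SA)), on the IL-1b arrays at 13.77 and 13.34, and on the TNFa arrays at 13.08 and 13.06. The deposited intensities behind these levels were 1455 and 2058 (vehicle), 13949 and 10318 (IL-1b), and 8616 and 8509.5 (TNFa). All 4 cytokine arrays were above both vehicle arrays, by more than 2 log2 units, and the 2 TNFa arrays differed by 0.02. With IL-1b it rose by 2.78 ± 0.26 (limma SE, 2 pairs, adjusted p = 8.3e-10, 6.88-fold), which was the 17th largest rise among the 12350 genes. With TNFa it rose by 2.30 ± 0.26 (adjusted p = 1.33e-07, 4.91-fold), the 23rd largest.

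ZC3H12A followed, with the higher level under IL-1b. The vehicle arrays gave 11.69 (GFP) and 11.46 (YAP(5SA)), the IL-1b arrays 14.38 and 13.50, and the TNFa arrays 12.98 and 12.96. The 4 cytokine arrays again lay above both vehicle arrays, and both IL-1b arrays lay above both TNFa arrays. The rise was 2.36 ± 0.26 with IL-1b (2 pairs, adjusted p = 4.32e-08, 5.15-fold) and 1.40 ± 0.26 with TNFa (adjusted p = 0.00146, 2.63-fold). The TNFa call was lost without the GFP vehicle array, where the response was 1.28 (adjusted p = 0.112), and when dim probes were kept (adjusted p = 0.0925).

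ZC3H12C, the relative of ZC3H12A, rose with IL-1b by a smaller amount. Levels were 9.41 (GFP) and 9.10 (YAP(5SA)) on the vehicle arrays, 10.45 and 9.90 on the IL-1b arrays, and 10.05 and 9.81 on the TNFa arrays, so the cytokine arrays did not overlap the vehicle arrays. The rise with IL-1b was 0.92 ± 0.25 (2 pairs, adjusted p = 0.0396). This limma call was lost when dim probes were kept (adjusted p = 0.210) and with the mean of all probes per gene (adjusted p = 0.0864). ZC3H12C was read by 1 probe, so its difference stayed at 0.92 in both. All 4 fits that left out 1 vehicle or IL-1b array lost the call too, with responses of 0.78 to 1.06. With TNFa the difference was 0.67 ± 0.25 (adjusted p = 0.546), with a 95% interval from 0.16 to 1.18.

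In all, 3 of the 8 genes were called higher with IL-1b (ZFP36, ZC3H12A and ZC3H12C) and 2 with TNFa (ZFP36 and ZC3H12A), and 0 were called lower with either. Over all genes 1.32% were called higher with IL-1b and 0.688% with TNFa, and 1.04% and 0.0810% lower. The median difference of the 8 genes was 0.57 with IL-1b and 0.17 with TNFa, beside 0.03 and -0.05 over all genes. All 4 cytokine arrays lay above both vehicle arrays for ZFP36, ZC3H12A and ZC3H12C, as they did for 4.37% of all genes. ZFP36 and ZC3H12A were higher by at least 1 in both lines with each cytokine, as were 0.551% of all genes with IL-1b and 0.381% with TNFa. The comparisons with IL-1b and TNFa share their vehicle arrays.

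**Figure D1:**
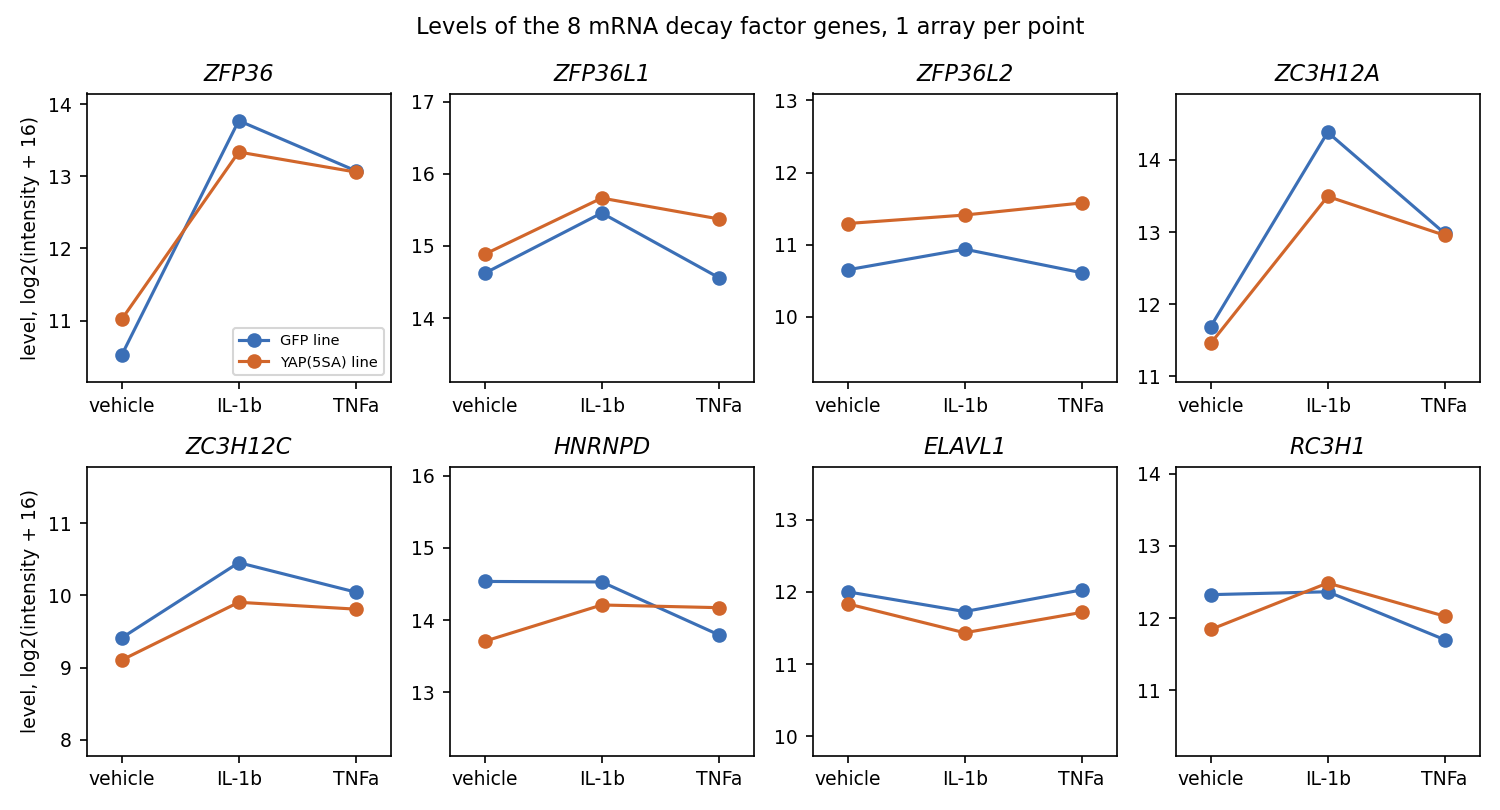
Level of each of the 8 genes, as log2(intensity + 16) of its brightest probe, by treatment (x axis), with 1 array per point, the GFP line in blue and the YAP(5SA) line in orange; every panel spans 4 log2 units. ZFP36 and ZC3H12A climb from 10.52 to 11.69 under vehicle to 12.96 to 14.38 with a cytokine, and ZFP36L2 is higher in the orange line under each treatment.

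ZFP36L1 did not pass the test in any comparison through its brightest probe. That probe gave 14.62 (GFP) and 14.89 (YAP(5SA)) on the vehicle arrays, 15.46 and 15.66 on the IL-1b arrays, and 14.56 and 15.37 on the TNFa arrays. Both IL-1b arrays were above both vehicle arrays, while the GFP array with TNFa was the lowest of all 6. The difference with IL-1b was 0.81 ± 0.26 (2 pairs, adjusted p = 0.0863), with a 95% interval from 0.29 to 1.32. It passed in a limma fit on the 4 vehicle and IL-1b arrays alone (adjusted p = 0.0228), where all genes shared 1 standard error. A trended, robust prior in limma also gave a call (adjusted p = 0.0357). With TNFa the difference was 0.21 ± 0.26 (adjusted p = 0.999).

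A second probe of ZFP36L1 gave another picture of the lines. The vehicle arrays gave 14.18 (GFP) and 15.08 (YAP(5SA)), the IL-1b arrays 14.91 and 15.51, and the TNFa arrays 14.66 and 14.93. The 3 arrays of the YAP(5SA) line lay above the 3 GFP arrays, the closest being 14.93 against 14.91. With each of 15536 probes tested by itself, this probe was higher by 0.59 ± 0.20 (3 pairs, adjusted p = 0.0423), as were 7.56% of all probes. The brightest probe differed by 0.43 ± 0.21 between the lines (adjusted p = 0.175 in the same fit). No alternative was run for single probes. For TNFa the 2 probes disagreed in sign in each line, at -0.06 and 0.48 in the GFP line and 0.49 and -0.16 in the other. Both put IL-1b above vehicle in each line, by 0.42 to 0.83.

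By the brightest probe of each gene, ZFP36L2 was the only member called between the lines and the only one whose arrays of the 2 lines did not overlap. The 3 GFP arrays gave 10.65 (vehicle), 10.94 (IL-1b) and 10.61 (TNFa), and the 3 YAP(5SA) arrays 11.29, 11.41 and 11.58. Pair by pair the YAP(5SA) line was higher by 0.64, 0.47 and 0.97, on average 0.69 ± 0.21 (limma SE, 3 pairs, adjusted p = 0.0143, 1.62-fold). The call was lost without the IL-1b pair (0.80, adjusted p = 0.121), without the TNFa pair (0.56, adjusted p = 0.0948) and when dim probes were kept (adjusted p = 0.0538). Its responses to IL-1b (0.20 ± 0.25, adjusted p = 0.736) and TNFa (0.12 ± 0.25, adjusted p = 0.999) did not pass. A second probe of this gene was too dim to test, at 4.90 to 6.12, and its 3 pairs gave 0.32, 0.50 and -0.72.

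By these probes 1 of the 8 genes was called higher in the YAP(5SA) line and 0 lower, where 7.90% of all genes were called higher and 8.91% lower. Arrays of the YAP(5SA) line all lay above those of the GFP line for 1 of the 8, beside 13.8% of all genes, and all below for 0, beside 14.4%. These shares do not set the members apart from other genes. The line difference was -0.38 ± 0.21 for ZC3H12A (adjusted p = 0.258), with a 95% interval from -0.81 to 0.05, and -0.36 ± 0.20 for ZC3H12C (adjusted p = 0.266). For ZFP36 it was 0.01 ± 0.21 (adjusted p = 0.982), with a 95% interval from -0.42 to 0.45, although the vehicle pair gave 0.50, the IL-1b pair -0.43 and the TNFa pair -0.02.

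**Figure D2:**
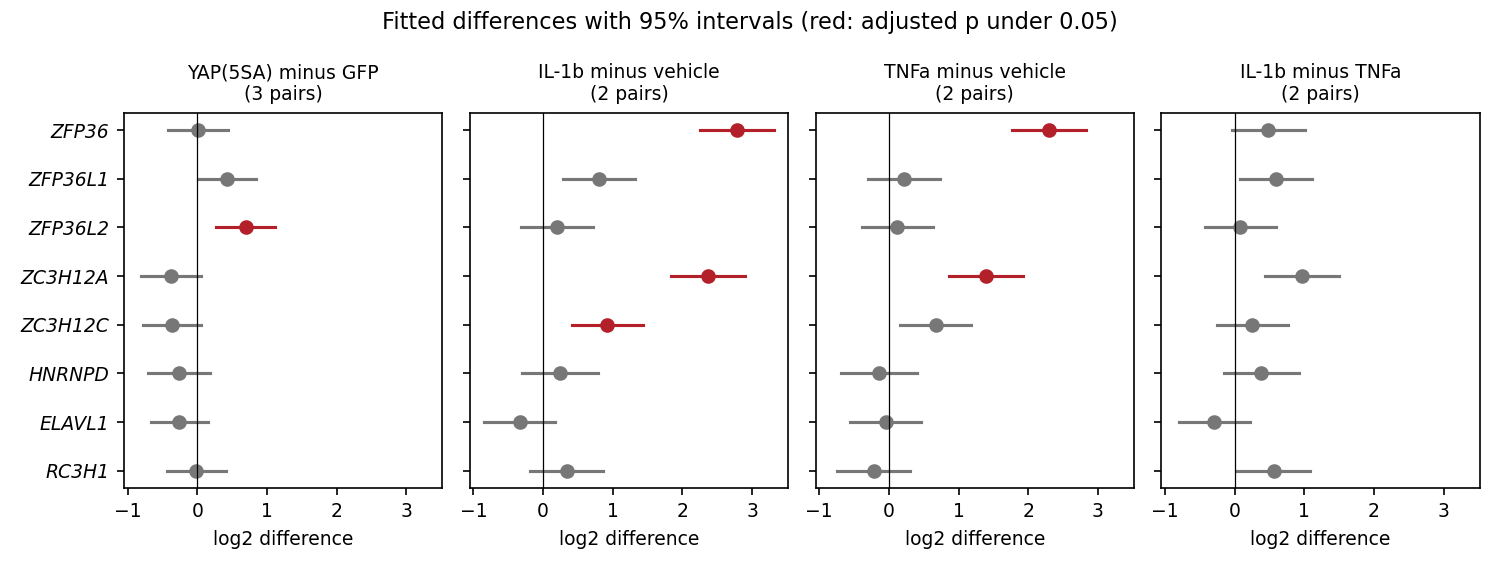
Fitted log2 difference (point) and its 95% interval (bar) for each gene and comparison, with red for an adjusted p under 0.05 in limma over all genes. ZFP36 and ZC3H12A stand to the right under both cytokines, from 1.40 to 2.78, ZC3H12C under IL-1b (0.92), and ZFP36L2 between the lines (0.69).

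The remaining 3 genes were called in no comparison. ELAVL1 varied least of the 8, over 0.59 log2 units: the vehicle arrays gave 12.00 (GFP) and 11.84 (YAP(5SA)), the IL-1b arrays 11.73 and 11.43, and the TNFa arrays 12.03 and 11.72. Both IL-1b arrays lay below both vehicle arrays, an order whose share over all genes was not counted. The level in the YAP(5SA) line was below that of the GFP line in all 3 pairs, by 0.17 to 0.31, and the fitted difference was -0.26 ± 0.20 (adjusted p = 0.468). With IL-1b it was -0.34 ± 0.25 (adjusted p = 0.523), with a 95% interval from -0.84 to 0.17. A dim second probe, not tested, was higher in the YAP(5SA) line in all 3 pairs, by 0.07 to 0.42, so the 2 probes point in opposite directions.

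HNRNPD stood at 14.53 (GFP) and 13.71 (YAP(5SA)) on the vehicle arrays, at 14.53 and 14.21 on the IL-1b arrays, and at 13.80 and 14.17 on the TNFa arrays. Its highest levels were the GFP arrays with vehicle and IL-1b, and its lowest the vehicle array of the YAP(5SA) line, so neither line nor treatment ordered the arrays. The line difference was -0.26 ± 0.22 (adjusted p = 0.508), with a 95% interval from -0.70 to 0.19, and the responses were 0.25 ± 0.27 to IL-1b (adjusted p = 0.683) and -0.14 ± 0.27 to TNFa (adjusted p = 0.999).

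RC3H1 was read by 3 probes that all passed the filter. The brightest gave 12.32 (GFP) and 11.84 (YAP(5SA)) on the vehicle arrays, 12.36 and 12.49 on the IL-1b arrays, and 11.70 and 12.03 on the TNFa arrays. Its range was 0.79; the IL-1b arrays lay just above both vehicle arrays, and the lines overlapped. Its differences were -0.01 ± 0.21 between the lines (adjusted p = 0.985), 0.34 ± 0.26 with IL-1b (adjusted p = 0.534) and -0.22 ± 0.26 with TNFa (adjusted p = 0.999). With IL-1b in the YAP(5SA) line the 3 probes gave 0.64, -0.74 and 0.86, so no direction can be read for this gene.

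**Figure D3:**
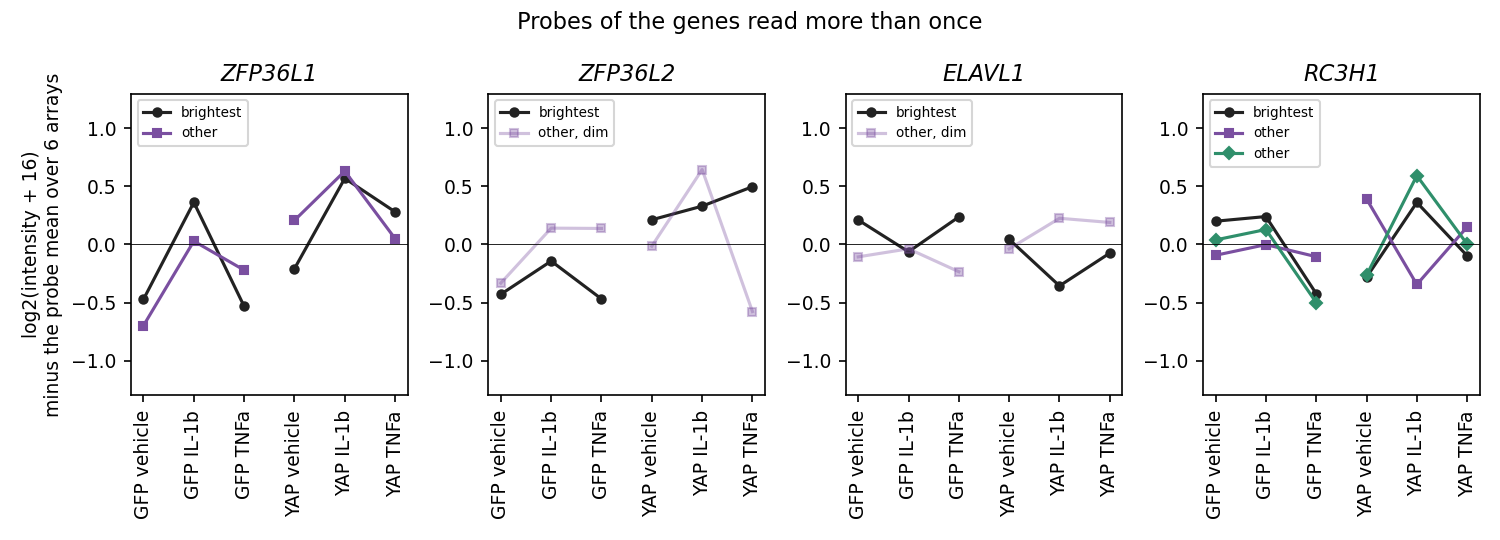
Every probe of the 4 genes read by more than 1 probe, as log2(intensity + 16) minus that probe's own mean over the 6 arrays; pale symbols mark probes too dim to test, and lines join the treatments of 1 line. The ZFP36L1 probes both stand higher with IL-1b and part with TNFa, and 1 of the 3 RC3H1 probes runs against the others.

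IL-1b and TNFa were then set against each other, which cancels the vehicle arrays. On average over the lines, IL-1b gave the higher level for 7 of the 8 genes and the lower for ELAVL1. In the YAP(5SA) line alone ZFP36L2 was lower with IL-1b (11.41) than with TNFa (11.58), and HNRNPD was nearly equal (14.21 and 14.17). Under alternative settings the difference went as low as -0.13 for ZFP36L2 and -0.09 for HNRNPD. The share of all genes higher with IL-1b was not counted. The median difference was 0.44 for the 8 genes and 0.09 over all genes, and ZFP36L2 (0.08) lay below the latter. The other 2 probes of RC3H1 gave -0.20 and 0.61. None of the 8 passed the test (limma), while 0.0243% of all genes did. The 3 genes called in this comparison were ATXN7L3B, CAMKK2 and IZUMO3, named after their values were seen, and for the first 2 the TNFa array of the YAP(5SA) line read 4.0, the floor of the scale. Without adjustment, 3 members had p under 0.05, as did 12.4% of all genes. The largest difference among members was that of ZC3H12A, 0.97 ± 0.26 (2 pairs, adjusted p = 0.128), with a 95% interval from 0.44 to 1.50. It was the 12th largest positive difference of all genes, and it passed with a trended, robust prior (adjusted p = 0.0252) and without the TNFa array of the YAP(5SA) line (1.24, adjusted p = 0.0150). ZFP36 differed by 0.49 ± 0.26 (adjusted p = 0.446), with a 95% interval from -0.04 to 1.01.

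The response in each line rests on 1 pair of arrays, so a gap between the lines is a size with no test. The IL-1b response of ZFP36 was 3.25 in the GFP line (9.49-fold) against 2.32 in the YAP(5SA) line (4.98-fold). That gap of -0.93 was exceeded in absolute size by 3.04% of all genes, and it came from both ends: the vehicle level was higher in the YAP(5SA) line and the IL-1b level lower. With TNFa the responses were 2.55 and 2.04, a gap of -0.51 that 44.8% of all genes exceeded. ZC3H12A responded to IL-1b by 2.69 and 2.04, a gap of -0.66 exceeded by 11.5% of genes, and to TNFa by 1.29 and 1.50. For TNFa the median gap of all genes was 0.26; after the median response of all genes was subtracted in each line, the TNFa gaps were -0.79 for ZFP36 and -0.07 for ZC3H12A. Among the 68 genes higher by at least 1 with IL-1b in both lines, 49 had the smaller response in the YAP(5SA) line, with a median gap of -0.26; with TNFa it was 31 of 47, with a median of -0.33. ZFP36 was 1 of these 49 and 1 of these 31.

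**Figure D4:**
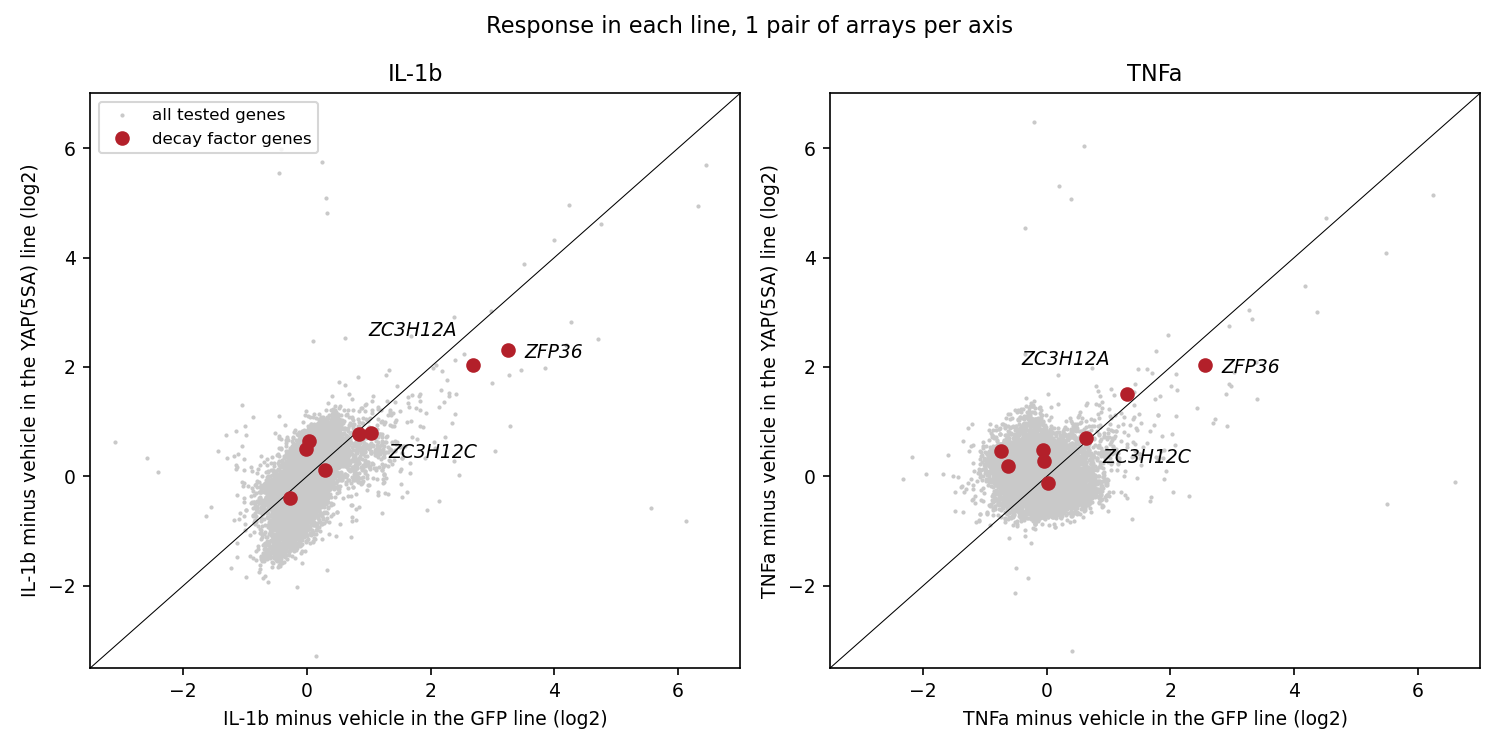
Response to IL-1b (left) and TNFa (right) in the GFP line (x axis) and in the YAP(5SA) line (y axis), as log2 differences of 1 pair of arrays each; grey dots are all tested genes, red the 8 decay factor genes, and the diagonal marks equal responses. With IL-1b, 10 genes and with TNFa 9 genes lie outside the axes. ZFP36 lies below the diagonal in both panels, ZC3H12A below it with IL-1b (2.69 against 2.04) and just above it with TNFa (1.29 against 1.50).

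The genes whose levels over the 6 arrays ran most like those of ZFP36, among 3697 genes that varied by at least 1, were NFKB2 (Pearson r = 0.99), GCH1, PIM1, CD83 and TMEM88, with r from 0.988 to 0.994. NFKB2, an NF-kB subunit, read 9.26 and 9.49 under vehicle and 11.14 to 11.52 with a cytokine. For ZC3H12A they were CD244, USP43, BHLHE40, IL23A and KCNQ5, with r from 0.970 to 0.993. IL23A, a subunit of the cytokine IL-23, gave 10.04 and 9.77 on the vehicle arrays, 12.43 and 11.91 on the IL-1b arrays, and 10.89 and 11.25 on the TNFa arrays. As for ZC3H12A, both IL-1b arrays lay above both TNFa arrays, which is no separate result because IL23A was chosen for its likeness to ZC3H12A. Among the members, ZFP36 and ZC3H12A had r = 0.94, ZC3H12A and ZC3H12C r = 0.96, and ZFP36 and ZFP36L2 r = 0.23. The 6 points are the same arrays throughout, so these values describe likeness and carry no test.

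Many of the mRNAs known as targets of these proteins, or known to carry AU-rich elements, rose with each cytokine. Of 28 tested, 16 were called higher with IL-1b and 15 with TNFa, and 0 lower with either, with medians of 1.44 and 1.18; the shares called higher over all genes were 1.32% and 0.688%. Those with the largest rises with each cytokine were the chemokines CCL20, CXCL8 and CXCL3 and the cytokine TNF, a classic ZFP36 target. TNF stood at 6.63 (GFP) and 6.76 (YAP(5SA)) on the vehicle arrays, at 12.95 and 11.70 on the IL-1b arrays, and at 12.11 and 10.84 on the TNFa arrays. No cytokine array overlapped the vehicle arrays, and the fitted rise with IL-1b was 5.63 ± 0.28 (2 pairs, adjusted p = 1.50e-17). The vehicle levels lay below the lowest mean level of any tested gene (7.79), and the size moved from 5.09 to 5.85 with pseudocounts of 64 and 1. Between the lines 2 were higher and 11 lower in the YAP(5SA) line, with a median of -0.39, where 7.90% of all genes were higher and 8.91% lower. The 2 largest differences were PTGS2, which encodes an inducible cyclooxygenase, at -4.04 ± 0.21, and IL6, a ZC3H12A target, at 3.12 ± 0.21 (3 pairs), with a GFP vehicle level of 6.26 that is as dim.

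The machinery that these factors recruit or work beside was read through 5 lists. The 70 tested genes were those of deadenylation, decapping, the exosome, p38 and MK2 signalling and other RNA-binding proteins. With TNFa limma called none of them, beside 0.769% of all genes. An unadjusted p under 0.05 was found for 3 (4.29%), beside 4.46% of all genes. With IL-1b 3 of the 70 (4.29%) were called, beside 2.36% of all genes, and 15 (21.4%) had an unadjusted p under 0.05, beside 15.1%. The shares with each cytokine do not set the lists apart. For IL-1b minus TNFa 0 of the 70 were called by limma. There 18 (25.7%) had an unadjusted p under 0.05, beside 12.4% of all genes, and that higher share was not tested. Of 17 deadenylation genes 0 were called, and of 9 decapping genes XRN1, the exonuclease that digests decapped mRNA, was called lower by -0.97 ± 0.26 (2 pairs, adjusted p = 0.0384). The vehicle arrays gave 10.61 (GFP) and 11.05 (YAP(5SA)) and the IL-1b arrays 10.09 and 9.63. The call was lost in 6 of 16 alternatives, among them without the vehicle array of the YAP(5SA) line (-0.56), without either IL-1b array (-1.23 and -0.71) and with the mean of its probes (-0.33). Of 15 exosome genes EXOSC8 was called lower (-1.57), through the IL-1b array of the YAP(5SA) line alone, which read 10.46 against 13.17 to 13.74 on the other 5; without it the difference was -0.02, without the vehicle array of that line -0.54, and without the GFP IL-1b array -3.11. Among 17 other RNA-binding genes ARID5A, which protects IL6 mRNA from ZC3H12A, was called higher with IL-1b by 1.07 ± 0.26 (adjusted p = 0.0210). That call was lost in 6 of 15 alternatives. Among them were the fits without the vehicle array of the YAP(5SA) line (0.66) or either IL-1b array (1.16 and 0.98). The others kept dim probes, took the mean of all probes or left out the line as a covariate.

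Between the lines 9 of the 70 were called (12.9%), beside 16.8% of all genes. Among the 17 other RNA-binding genes, ELAVL2, a neuronal relative of ELAVL1, differed most. It read 6.05 to 6.65 in the GFP line and 9.54 to 10.32 in the YAP(5SA) line, a fitted difference of 3.70 ± 0.21 (3 pairs, adjusted p = 6.72e-17). Its GFP levels lay below 7.79, the lowest mean level of any tested gene, so it passed the filter through the YAP(5SA) arrays, and it was not among the genes tested with the dimmest 60% left out. With no detection flags its size is uncertain, and it moved from 3.08 to 3.98 with pseudocounts of 64 and 1. IGF2BP2 (1.57) and IGF2BP3 (0.79), which bind and stabilise mRNAs, were also higher, and 0 of the 17 were lower. In the deadenylation list TOB1 (-0.72 ± 0.20, adjusted p = 0.0102) and BTG1 (-0.69 ± 0.20, adjusted p = 0.0139), antiproliferative adaptors that bind the CCR4-NOT deadenylase, were lower and 0 of 17 higher. The TOB1 call was lost without the IL-1b pair (-0.67), and those of BTG1 and IGF2BP3 without the IL-1b pair (-0.74 and 0.76) or the TNFa pair (-0.63 and 0.56). The p38 and MK2 list covers the pathway that phosphorylates and restrains ZFP36. Of its 12 tested genes MAP2K6, a kinase that activates p38, was lower by -1.77 ± 0.21, and MAP2K3 (0.94) and the phosphatase DUSP1 (0.60) were higher. MAP2K6 read 7.67 to 8.12 in the YAP(5SA) line, near the level of 7.79 given above. It was not tested with the dimmest 60% left out, and its size was -1.58 and -1.84 with pseudocounts of 64 and 1. The DUSP1 call was lost in all 6 fits without an array (0.50 to 0.77). Of 15 exosome genes DIS3L was higher (0.82), a call lost without the IL-1b pair (0.78), and of 9 decapping genes 0 were called.

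**Figure D5:**
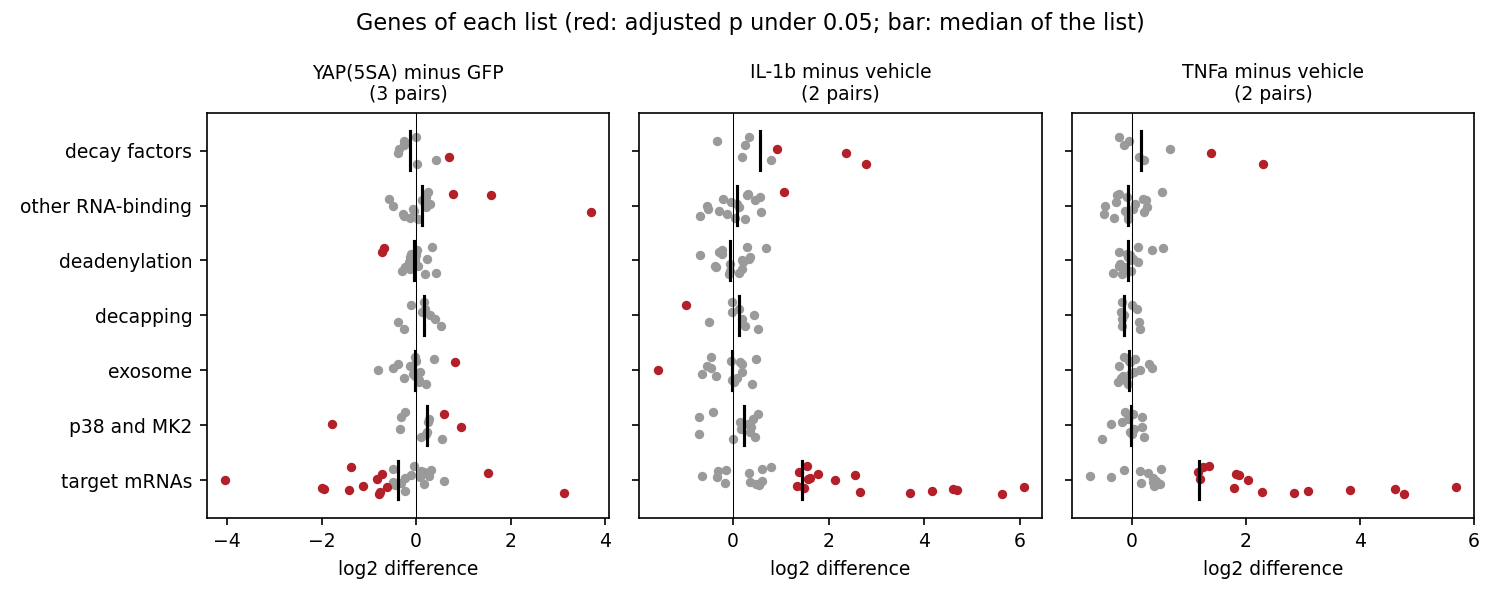
Log2 differences of every tested gene in each list for the line difference (left), IL-1b (middle) and TNFa (right); 1 dot per gene, red for an adjusted p under 0.05, and a bar at the median of the list. The target mRNAs reach 6.07 with IL-1b and 5.69 with TNFa, while in the lists of decay machinery, signalling and other RNA-binding genes the called genes run from -1.77 to 3.70 between the lines and from -1.57 to 1.07 with IL-1b.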

How the data were processed

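Per the labels' protocols, Trizol-extracted RNA was amplified (Eberwine method) and labelled with Cy5 for 1-colour arrays. The authors deposited linear probe intensities that had been background-subtracted (10 to 1146 probes per array were below 0) and, by their values, scaled by 1 factor per array (low values were whole multiples of a step per array, within 0.02). How either was done is not given in the sources used here. The number of arrays limits the precision.

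Of 28264 probes, 25893 carried 1 gene, 0 several and 2371 none; all 25893 matched RefSeq (GRCh38.p14), used for symbols and promoter windows. Values below 0 were set to 0, 16 was added and log2 taken; the dimmest 40% of named probes were left out and the brightest probe stood for its gene. Treatment and line were fitted additively with limma 3.58.1 in R 4.3.3 (lmFit, eBayes, Benjamini-Hochberg), with 2 residual and 34.3 prior degrees of freedom. The fit was tested on simulated data first. The members, gene lists and tests were chosen with earlier results of these data known. Named genes were all members, up to 4 called genes per list and comparison by size, and for ZFP36 and ZC3H12A the 5 most alike genes. Some listed genes, among them BTG2, MAPK14 and CSF2, were not analysed here.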

Additional observations from a re-analysis of the deposited data

Results flagged for a closer look

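For 4 members the response to TNFa, and for HNRNPD the response to both cytokines, had opposite signs in the 2 lines, with 1 pair of arrays per line. These differences were not tested. With TNFa the same was true of 62.7% of all genes and with IL-1b of 28.0%. HNRNPD with TNFa was -0.74 (GFP) and 0.47 (YAP(5SA)), a gap of 1.20 that 3.13% of genes exceeded; relative to the median of all genes in each pair the responses were -0.55 and 0.38. With IL-1b HNRNPD was -0.01 and 0.50, a gap of 0.51. RC3H1 with TNFa was -0.62 and 0.18 (gap 0.81), and its other probes gave -0.01 and -0.24, and -0.54 and 0.27. ZFP36L1 with TNFa was -0.06 and 0.49 (gap 0.55), and ZFP36L2 -0.04 and 0.28 (gap 0.33); relative to the median of all genes both responses were above 0 for these genes (0.13 and 0.40, 0.15 and 0.20). ELAVL1 with TNFa was 0.03 and -0.12 (gap -0.15).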

How the results depend on the processing

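The rises of ZFP36 with both cytokines and of ZC3H12A with IL-1b passed under every alternative but the fit without the line as a covariate. There the adjusted p from limma was 0.0886 and 0.209 for ZFP36 and 0.270 for ZC3H12A. The line difference in the main fit was 0.01 for ZFP36 and -0.38 for ZC3H12A, and why these calls were lost was not tested. No called member changed sign under any alternative. Members called between the lines: 1, but 0 with no filter, and 0 to 1 leaving out an array. With IL-1b 3 were called, but 2 with no filter or with the mean of probes (without ZC3H12C, adjusted p = 0.210 and 0.0864), 4 with the trended robust prior or on the 4 arrays alone, 0 without the covariate and 2 to 4 leaving out an array; with TNFa 2, but 1 with no filter, 0 without the covariate and 1 to 2 leaving out an array; for IL-1b minus TNFa 0, but 1 with the trended robust prior and 0 to 1 leaving out an array. Counts over all genes moved more. Between the lines 2077 were called (976 higher), 1383 with the dimmest 60% left out, and 1023 to 2300 leaving out an array; median centring gave 1409 higher and 954 lower. With IL-1b 292 were called, 58 with no filter, 80 with the mean of all probes, 455 with the trended prior, 4 without the covariate, 692 on the 4 arrays alone, and 58 to 692 leaving out an array. With TNFa 95 were called, 36 with no filter, 45 with the mean of probes, 3 without the covariate, and 50 to 129 leaving out an array. For IL-1b minus TNFa 3 were called, 1 with quantile normalization, median centring, the mean of probes or a pseudocount of 1, 24 with a pseudocount of 64, 44 with the dimmest 60% left out, 132 with the trended prior, 0 without the covariate, 63 on the 4 arrays alone, and 9 to 503 leaving out an array. The cause of these moves was not tested. The alternatives for genes outside the 8 were added after seeing the data. The arrays were already paired by line and treatment in the fit, and the labels give no replicate numbers for a further block.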
